A study of Mus musculus with 4 samples.

Results

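Transcripts of 9 enzymes that desaturate or elongate fatty acids were followed in the livers of 4 aP2-SREBP-1c mice, with 1 array per mouse. The group consists of the desaturases Scd1, Scd2, Fads1, Fads2 and Fads3 and the elongases Elovl1, Elovl2, Elovl5 and Elovl6. The members were taken by name, as probe sets annotated to exactly 1 of these gene symbols, with the highest mean deciding between several probe sets of a gene. Each of the 9 genes had 1 such probe set, so that no choice had to be made. They are 9 of 19938 genes with a named probe set. The mice were male C57Bl6 animals, 24 weeks old and fed regular chow, that carry a transgene (aP2-HA-hSREBP-1c-NT) for the active N-terminal part of human SREBP-1c. The aP2 promoter drives this transgene in adipocytes, and the mice develop lipodystrophy with a fatty liver. All 4 mice share the transgene, and their number limits the precision of every value. Arrays of C57Bl6 and alb-SREBP-1c mice were not analysed here. Accordingly, levels and differences between single mice are described, without p-values and without a comparison of phenotypes.

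Fatty acid synthase releases palmitate, which the elongase ELOVL6 extends to stearate. The stearoyl-CoA desaturases place the first double bond and thereby form palmitoleate and oleate, the main monounsaturated fatty acids of stored triglyceride. Polyunsaturated fatty acids start from dietary linoleate and alpha-linolenate and pass through alternating steps of FADS2, ELOVL5, FADS1 and ELOVL2 towards arachidonate and docosahexaenoate. Each elongase performs the condensation step of a cycle that is completed by shared partner enzymes, and the desaturases receive their electrons from cytochrome b5 and its reductase. In liver, SREBP-1c, LXR, PPARalpha and the carbohydrate sensor ChREBP are known regulators of many of these genes.

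Of the 9 members, 6 were present among the RefSeq promoter sequences, namely Fads2, Fads3, Elovl1, Elovl2, Elovl5 and Elovl6, and Scd1, Scd2 and Fads1 were not. The stretches of 250 bases before the transcription start of Fads2, Elovl5 and Elovl6 are shown, since the transcripts of Fads2 and Elovl5 were lowest in mouse 1 while that of Elovl6 was highest there. They were read 5′ to 3′ on the strand of the gene in build GRCm38.p6 from RefSeq, at chr19:10101504-10101753 on the minus strand for Fads2, chr9:77917115-77917364 on the plus strand for Elovl5 and chr3:129532136-129532385 on the plus strand for Elovl6. Capitals mark matches to the motifs searched on both strands, so that a match on the opposite strand appears as its reverse complement.
Fads2: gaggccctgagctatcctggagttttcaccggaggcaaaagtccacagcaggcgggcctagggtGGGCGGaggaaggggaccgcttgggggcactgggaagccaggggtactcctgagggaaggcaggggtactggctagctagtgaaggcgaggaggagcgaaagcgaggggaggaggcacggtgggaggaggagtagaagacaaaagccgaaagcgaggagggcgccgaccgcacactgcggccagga
Elovl5: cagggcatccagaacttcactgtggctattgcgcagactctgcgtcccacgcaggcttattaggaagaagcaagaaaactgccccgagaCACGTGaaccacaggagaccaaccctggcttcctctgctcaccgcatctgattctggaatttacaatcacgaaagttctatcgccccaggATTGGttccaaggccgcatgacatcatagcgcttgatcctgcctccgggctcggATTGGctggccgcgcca
Elovl6: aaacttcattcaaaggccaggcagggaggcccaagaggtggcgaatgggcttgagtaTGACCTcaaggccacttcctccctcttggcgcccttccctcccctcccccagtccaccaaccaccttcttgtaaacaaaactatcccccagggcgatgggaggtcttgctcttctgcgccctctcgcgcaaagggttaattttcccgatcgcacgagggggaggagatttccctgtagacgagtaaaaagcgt

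The motifs were a sterol regulatory element (TCACNCCAC, held by 1.05% of 32851 RefSeq promoter stretches of this length), an E-box (CACGTG, 6.02%), a CCAAT box (CCAAT, 33.8%), a GC box (GGGCGG, 32.7%), a nuclear receptor half-site (AGGTCA, 14.0%) and a TATA box (TATAAA, 12.4%). These motifs do not overlap in the 3 stretches shown. The Elovl5 stretch held 1 E-box, whose first base lies 161 bases before the start, and 2 CCAAT boxes at 71 and 17 bases. The Fads2 stretch held 1 GC box at 186 bases. The Elovl6 stretch held 1 half-site at 193 bases. The letters of the sterol regulatory element were in none of the 8 stretches available for the 6 members. Fads3, Elovl1 and Elovl2 were lowest in mouse 1 as well, so that the stretches shown are examples. The Fads3 stretch held 2 CCAAT boxes and 2 GC boxes. The Elovl1 stretches held 5 GC boxes with 1 CCAAT box, and 2 GC boxes with 1 half-site. Of the Elovl2 stretches, 1 held 5 GC boxes and the other no match. These matches describe letters in the windows and not binding. The Fads2 stretch contained 64.8% G and C, the Elovl5 stretch 55.6% and the Elovl6 stretch 56.4%, with a median of 52.4% over all stretches.

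All 9 members were above background. As background limit served the 95th percentile of 1212 odorant and pheromone receptor probe sets. It lay at 5.33 to 5.52 on the log2 scale of the 4 arrays. These receptors were taken as a mostly unexpressed group, and whether single ones are expressed in liver was not tested. In total 12265 of the 19938 genes exceeded it in each mouse, the share against which every count of genes above background has to be read. Of hepatocyte markers, 8 of 8 measured genes were above background. Of pancreatic acinar markers, 7 of 7 measured genes were above background and differed between mice, with a median level of 8.26, 6.05, 6.58 and 8.28 in mice 1 to 4. Among other cell types, all 10 macrophage, 10 stellate cell and 10 endothelial markers were above background, as were 7 of 9 measured adipocyte, 3 of 7 biliary and 2 of 9 lymphocyte markers. The adipocyte markers that were not above background were Adipoq and Lep. Of the 7 that were, Pck1 and Cidec had means of 10.5 and 8.78, and Lpl had 6.71. Fabp4, Slc2a4, Plin1 and Retn were nearer to the limit, with means of 6.28, 5.80, 5.77 and 5.73. Which cells these transcripts came from was not tested. The values of mouse 1 were lower than those of the other mice among highly expressed genes. The median difference from the other mice was -0.23 over genes in the top decile of mean expression and -0.084 over all genes above background. It was -0.26 over the genes nearest to Elovl1 in mean level and -0.17 over those nearest to Scd1, at the upper end. In bulk liver, fewer cells of a type and less RNA per cell cannot be told apart.

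In none of the 9 members did the highest mouse exceed the lowest by over 1.5-fold, which was the case for 12.9% of all genes above background. The range was 1.11-fold for Scd1 and 1.43-fold for Fads2, which mark the ends of the group. The median SD between mice was 0.16 over the members, 0.15 over all genes above background and 0.15 over the top decile of mean expression, in which 7 of the 9 members lay. Scd1, Scd2, Elovl1 and Elovl6 had an SD below the median of genes in their own decile. Fads1, Fads2, Fads3, Elovl2 and Elovl5 had an SD above it. Fads3 and Scd2 belonged to the third and the fifth decile, respectively. Since probe sets differ in how strongly they bind, levels of different genes were not ranked.

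**Figure D1:**
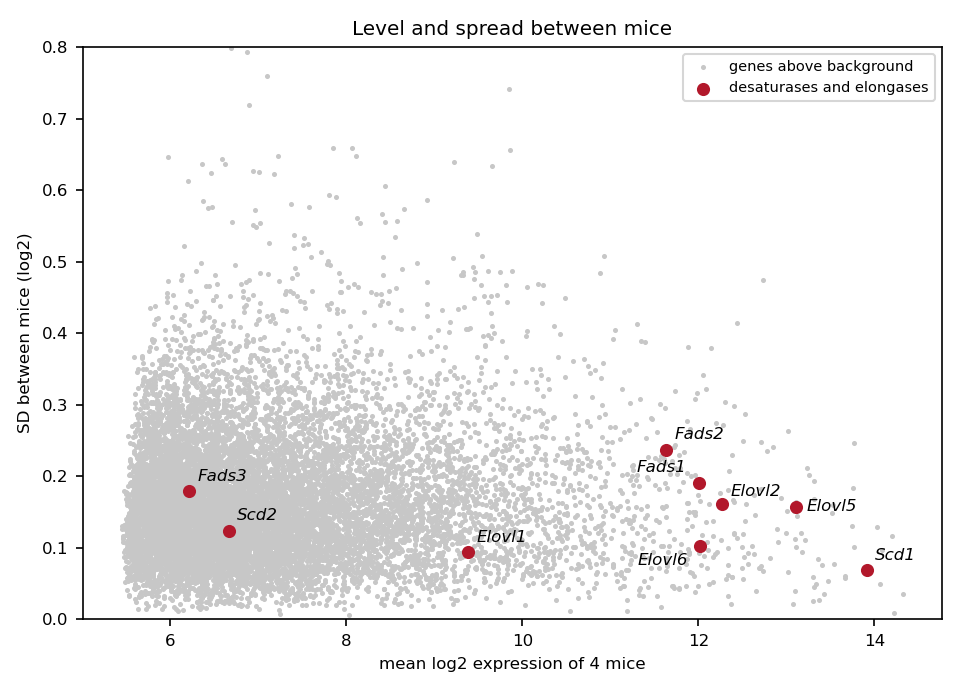
Mean log2 expression of the 4 aP2-SREBP-1c mice (x axis) and SD between mice (y axis) for the 12265 genes above background (grey) and the 9 desaturases and elongases (red). The members' SDs span 0.068 for Scd1 to 0.24 for Fads2 and lie among those of other genes; 20 genes with an SD above 0.8 lie outside the axis.

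Among the enzymes of saturated and monounsaturated fatty acids, Scd1 varied least. Scd1 (probe set 10467979, chromosome 19) is the main stearoyl-CoA desaturase of adult liver. Its log2 expression was 13.83, 13.96, 13.98 and 13.89 in mice 1 to 4. This amounts to 13.92 ± 0.068 (SD, n = 4), with a 95% confidence interval of 13.75 to 14.09 from a one-group limma fit. The values of mice 1 and 4 were below those of mice 2 and 3. Scd1 lay within 0.52 of the highest value of an array, and whether this limited its range was not tested. Among the 106 genes nearest to it in mean level, the median SD was 0.11.
Scd2 (probe set 10463355, chromosome 19), the isoform known from brain and from fetal liver, was measured at 6.53, 6.79, 6.74 and 6.59. Its mean was 6.66 ± 0.12 (SD, n = 4; 95% confidence interval 6.48 to 6.85), 1.28 above the mean background limit. As for Scd1, mice 1 and 4 were the low ones. The Scd genes are close paralogs, and how far the probes for Scd2 also bind Scd1 transcript was not tested.
Elovl6 (probe set 10495993, chromosome 3), which extends palmitate to stearate, was measured at 12.13, 11.90, 11.98 and 12.08. Its mean was 12.02 ± 0.10 (SD, n = 4; 95% confidence interval 11.85 to 12.20). Here mice 1 and 4 were the high ones, in contrast to both desaturases. Elovl6 was the only one of the 9 members with its highest value in mouse 1, whereas 5.87% of the genes in the top decile of mean expression had theirs there. Relative to the mean of the other mice, Elovl6 in mouse 1 was higher by 0.14 on the log2 scale. Since genes of its decile differed by a median of -0.23 in this mouse, Elovl6 lay 0.38 above that median.

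**Figure D2:**
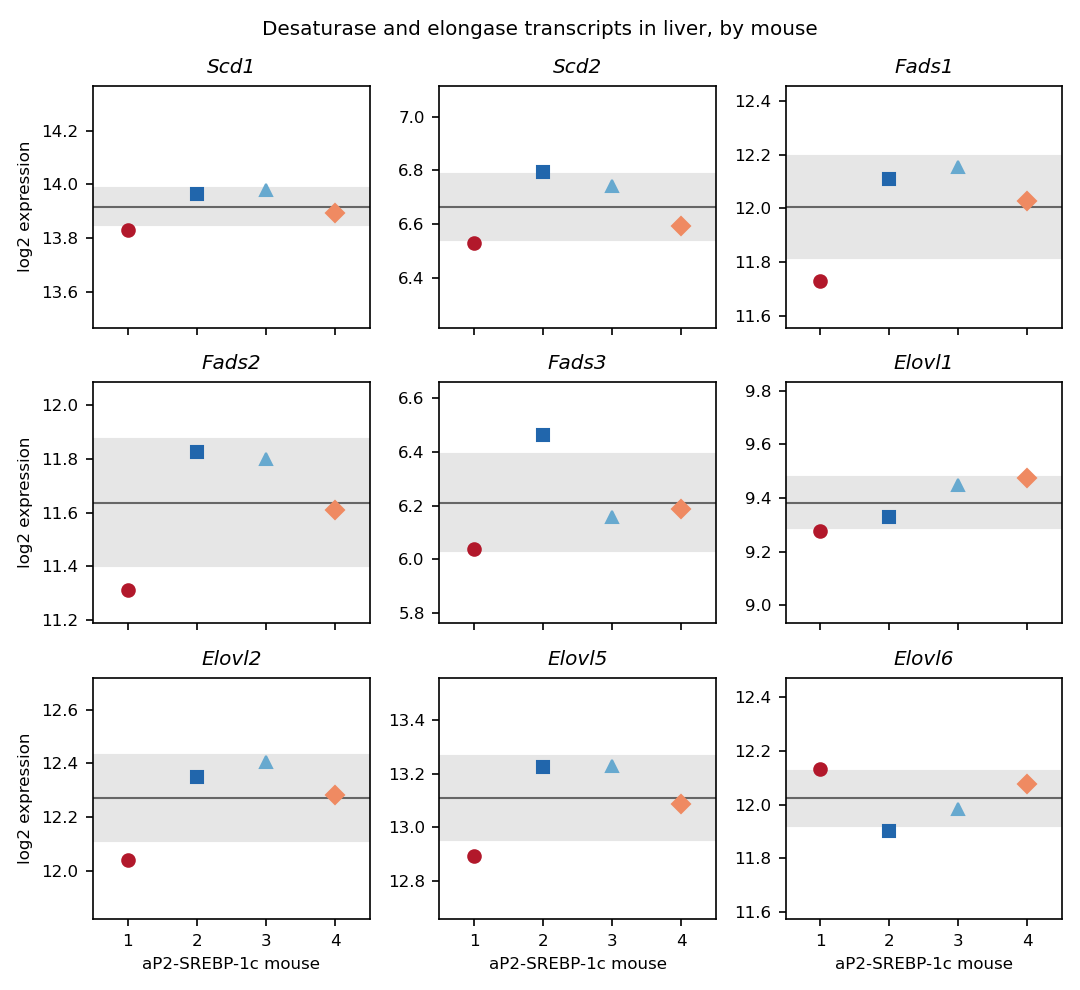
Log2 expression (y axis) of each desaturase and elongase in aP2-SREBP-1c mice 1 to 4 (x axis), with the mean as a line and ± SD as a grey band; every panel spans the same log2 distance around its own mean. Mouse 1 is the lowest point in all panels except Elovl6, where it is the highest.

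In the 4 enzymes of polyunsaturated fatty acids mouse 1 was lowest, mouse 4 next and mice 2 and 3 were close together on top. Scd1 and Scd2 had mouse 1 lowest and mouse 4 next as well, which makes 6 of the 9 members, and the same held for 49.3% of the top decile and 22.6% of all genes above background. After quantile normalization Elovl2 lost this order, with mouse 2 at 0.013 and mouse 4 at 0.043 from the other mice. Fads2 (probe set 10465895, chromosome 19), which performs the initial desaturation of linoleate and alpha-linolenate, was measured at 11.31, 11.83, 11.80 and 11.61. Its mean was 11.64 ± 0.24 (SD, n = 4; 95% confidence interval 11.41 to 11.86). Mouse 1 lay below this interval, which refers to the mean and not to the spread of single mice. The same held for Elovl5, Fads1 and Elovl2. With the wider interval from the SD of the gene alone, mouse 1 lay inside for each of these genes. Without mouse 1, the range of Fads2 fell from 1.43-fold to 1.16-fold.
Elovl5 (probe set 10587284, chromosome 9), which extends the products of FADS2, was measured at 12.89, 13.22, 13.23 and 13.09, with a mean of 13.11 ± 0.16 (SD, n = 4; 95% confidence interval 12.92 to 13.30). Mice 2 and 3 were nearly equal, and mouse 1 stood below the other mice. Its range was 1.26-fold, or 1.10-fold without mouse 1.
Fads1 (probe set 10461439, chromosome 19), which forms arachidonate and eicosapentaenoate, was measured at 11.73, 12.11, 12.15 and 12.03. The mean was 12.01 ± 0.19 (SD, n = 4; 95% confidence interval 11.80 to 12.21), and again mouse 1 was apart from the rest. The range was 1.34-fold, or 1.09-fold without mouse 1.
Elovl2 (probe set 10408838, chromosome 13), an elongase on the route to docosahexaenoate, was measured at 12.04, 12.35, 12.41 and 12.28. The mean was 12.27 ± 0.16 (SD, n = 4; 95% confidence interval 12.08 to 12.46). Its range of 1.29-fold fell to 1.09-fold without mouse 1.

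The remaining members act outside these routes. Fads3 (probe set 10461423, chromosome 19), known for desaturating sphingoid bases, was measured at 6.04, 6.46, 6.16 and 6.19, with a mean of 6.21 ± 0.18 (SD, n = 4; 95% confidence interval 6.01 to 6.41). Unlike the other Fads genes, it stood out by a high value in mouse 2. In its lowest mouse Fads3 exceeded the background limit of that array by 0.52. Elovl1 (probe set 10507539, chromosome 4), an elongase of very long saturated and monounsaturated chains, was measured at 9.28, 9.33, 9.45 and 9.48. Its mean was 9.38 ± 0.094 (SD, n = 4; 95% confidence interval 9.21 to 9.56). Mice 1 and 2 were below mice 3 and 4, an order that no other member had.

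Mouse 1 held the lowest value for 8 of the 9 members, against 46.1% of all genes above background. Of the 7 members in the top decile of mean expression 6 were lowest in mouse 1, against 78.1% of all genes in that decile. Over the members, each mouse differed from the mean of the rest by a median of -0.23, 0.14, 0.10 and -0.029 for mice 1 to 4. Over the top decile it was -0.23, 0.069, 0.13 and 0.034.
Individual members nevertheless fell on both sides of the genes of their decile in mouse 1. Fads2 differed by -0.43 from the other mice in mouse 1, Fads1 by -0.37, Elovl2 by -0.31 and Elovl5 by -0.28, each further down than the median of -0.23. Scd1 differed by -0.11 and Elovl1 by -0.14, less than that median. In the lower deciles, Scd2 differed by -0.18 where genes of its decile had a median of -0.070, and Fads3 by -0.23 where they had 0.028. Of the genes nearest in mean level, 10% lay lower in mouse 1 than Fads2 did, and 18.5% lower than Fads1. For Elovl5 and Elovl2 it was 23.0% and 25.4%, for Fads3 18% and for Scd2 33%. For Scd1, Elovl1 and Elovl6 it was 66.0%, 71.5% and 95.5%. Elovl2, Scd1, Elovl1 and Scd2 thus lay within the interquartile range of such genes.
After quantile normalization, which gives the 4 arrays the same distribution of values, the median difference of mouse 1 was -0.15 over the members and -0.047 over the top decile. Fads2 in mouse 1 then differed by -0.27, Elovl5 by -0.21, Fads1 by -0.18 and Elovl2 by -0.12. Elovl1 turned to 0.070, so that 7 members were lowest in mouse 1. Elovl6 rose to 0.32 above the other mice in mouse 1, and its range between mice widened from 1.17-fold to 1.33-fold. The pancreatic acinar marker Ctrb1, at 9.49, 6.58, 7.14 and 9.01 in mice 1 to 4, was also high in mice 1 and 4. The part of pancreatic transcripts and of the general shift of mouse 1 in the differences of the members was not tested.

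**Figure D3:**
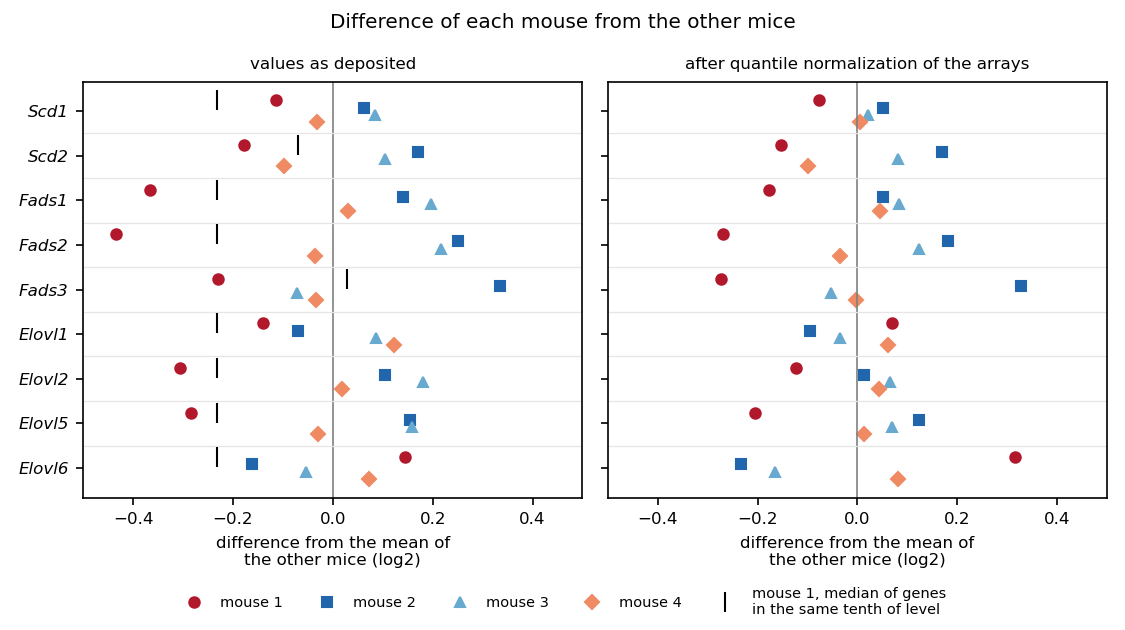
Difference of each aP2-SREBP-1c mouse from the mean of the other mice (x axis, log2) for each member (y axis), with the values as deposited on the left and after quantile normalization on the right. Symbols stand for mice, and black ticks for the median difference of mouse 1 over genes in the same decile of mean expression; Elovl6 in mouse 1 lies at 0.14 on the left and 0.32 on the right, opposite to Fads2 at -0.43 and -0.27.

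The likeness of members was measured as the root mean square distance between their 4 deviations from the gene mean. This is a description over 4 mice, of which mouse 1 was lowest for most genes of the top decile. Of 36 pairs of members, Fads1 and Elovl2 were closest at 0.027, followed by Elovl2 and Elovl5 at 0.028 and Fads1 and Elovl5 at 0.041. Fads2 and Elovl6 were farthest apart at 0.29. Many genes outside the group were nearer, since 84 genes above background lay closer to Fads1 than Elovl2 did, and 370 lay closer to Fads2 than Fads1 did. The 3 genes nearest to Fads2 were Abcc2, an export pump for conjugated bilirubin (distance 0.0026), Hpgd, which degrades prostaglandins (0.0091), and the kinase gene Mapk7 (0.011). Those nearest to Fads1 were the ubiquitin ligase genes Rnf128 (0.0047) and Rchy1 (0.0075) and Med14, a subunit of the Mediator complex (0.0081).
The 5 desaturases lie on chromosome 19, with Fads3, Fads2 and Fads1 as direct neighbours and Scd3, Scd2, Scd4 and Scd1 as another row of neighbours. Position and pattern did not go together throughout. The profile of Fads3, a gene near background, lay at a distance of 0.14 from both Fads1 and Fads2. The distance was 0.055 between Fads1 and Fads2 and 0.054 between Scd1 and Scd2. Rab3il1, which adjoins Fads3, was measured at 6.06, 6.07, 6.09 and 5.82 and thus was not low in mouse 1.

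Further desaturases and elongases of the mouse were largely at background in these livers. Of 8 such genes, all of them measured, 3 were above background, namely Elovl3, Fads6 and Degs1, and none of these differed by more than 1.5-fold. Elovl3, an elongase of very long chains, was measured at 12.60, 12.73, 12.74 and 12.74 in mice 1 to 4. Degs1, which desaturates dihydroceramide, varied least (8.93 ± 0.047, SD, n = 4), and Fads6 was at 7.65 ± 0.11 (SD, n = 4). Scd3, at 5.26, 4.89, 4.58 and 5.13, stayed below the background limit of every array, as did Scd4, Elovl4 and Elovl7, while Degs2 was below the limit in mouse 2 and above it in the other 3 mice.
Of the partner enzymes that complete the elongation cycle, 5 of 6 measured genes were above background and 1 differed by more than 1.5-fold. This was Hacd3, a dehydratase of the cycle, at 8.38, 8.98, 9.08 and 8.85, a range of 1.63-fold that fell to 1.18-fold without mouse 1. The ketoacyl reductase gene Hsd17b12 was at 10.17, 10.65, 10.70 and 10.53, in the order of mice seen for Fads1. Tecr, the enoyl reductase, varied least with 10.50 ± 0.13 (SD, n = 4).

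Of 6 measured genes that supply electrons to the desaturases, 5 were above background and 3 of these differed by more than 1.5-fold, against 12.9% of all genes above background. Cyb5b, a cytochrome b5, was measured at 10.27, 10.80, 10.88 and 10.59. Cyb5r3, the main cytochrome b5 reductase, was at 12.06, 12.66, 12.65 and 12.26, with mice 1 and 4 low as in Fads2. Cyb5r4, a reductase fused to a cytochrome b5 domain, was at 7.19, 7.84, 8.09 and 8.11. The range was 1.52-fold for both Cyb5b and Cyb5r3, just past 1.5-fold, and 1.90-fold for Cyb5r4. All 3 were lowest in mouse 1, as were 46.1% of all genes above background. In the top decile, which held Cyb5b and Cyb5r3, it was 78.1%. None of the 3 exceeded 1.5-fold without this mouse, when 2.67% of all genes above background did. Mouse 1 differed from the other mice by -0.48 in Cyb5b, -0.47 in Cyb5r3 and -0.83 in Cyb5r4. After quantile normalization these differences shrank to -0.31, -0.28 and -0.71. Cyb5r1 varied least, at 6.13 ± 0.14 (SD, n = 4).
Of the genes of saturated substrate supply, all 8 were above background, none differed by more than 1.5-fold, and the median SD was 0.092. Fasn, the fatty acid synthase, was at 11.78, 11.72, 11.75 and 11.89, and Acaca, which forms malonyl-CoA, at 10.33, 10.11, 10.21 and 10.46. Acacb was at 8.73, 8.58, 8.59 and 8.80, and the citrate carrier Slc25a1 varied least with 10.27 ± 0.053 (SD, n = 4). Of these 8 genes 5 were lowest in mouse 2, as was Elovl6, against 18.8% of all genes above background. The other 3 were lowest in mouse 1, against 46.1%. Most of the 8 belonged to the top decile of mean expression, where 78.1% of genes were lowest in mouse 1. Elovl6, Fasn, Acaca and Acacb had mouse 2 lowest, mouse 3 next and mice 1 and 4 highest. The share of all genes with this order is not given here. It was not particular to lipogenic genes, since the pancreatic acinar marker Ctrb1 had it as well. Of the 7 acinar markers above background, 6 were lowest in mouse 2. Thrsp, a lipogenic nuclear protein chosen after its values were seen, was at 12.08, 12.26, 12.28 and 12.16, with mouse 1 lowest as in Fads1.

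Of the genes for acyl-CoA activation and binding, 8 of 8 measured were above background and none differed by more than 1.5-fold, with Dbi, an acyl-CoA binding protein, at 12.34 ± 0.062 (SD, n = 4). Acsl5, an acyl-CoA synthetase, was at 11.21 ± 0.14 (SD, n = 4) and Acsbg1, a synthetase of the bubblegum family, at 5.91 ± 0.19 (SD, n = 4).
In peroxisomes, where the last chain shortening towards docosahexaenoate takes place, 6 of 6 measured genes were above background and 2 differed by more than 1.5-fold. Abcd2, a peroxisomal importer of very long and polyunsaturated acyl-CoA, was at 7.91, 8.61, 8.96 and 8.40 and showed a 2.08-fold range, which fell to 1.48-fold without mouse 1. The thiolase gene Acaa1a was at 8.01, 8.36, 7.65 and 7.90, with mouse 3 lowest, and its 1.63-fold range did not depend on mouse 1. It shares sequence with its paralog Acaa1b, and the split of signal between them was not tested. Abcd3 varied least, at 12.22 ± 0.094 (SD, n = 4).
Of genes that place fatty acids into lipids, 12 of 15 measured were above background and 1 differed by more than 1.5-fold. This was Lclat1, an acyltransferase of cardiolipin and phosphatidylinositol, at 9.02, 9.61, 9.68 and 9.35, a range of 1.58-fold that fell to 1.26-fold without mouse 1. Lpin2, a phosphatidate phosphatase, was at 9.37 ± 0.22 and Agpat2, an acyltransferase of triglyceride synthesis, at 11.53 ± 0.032 (SD, n = 4 each).

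Of the genes for transcriptional control, 17 of 17 measured were above background and 1, Ppara, differed by more than 1.5-fold. Ppara encodes a fatty acid sensor that induces desaturases and oxidation enzymes, and was at 8.63, 9.44, 9.55 and 9.08. Its range was 1.89-fold and fell to 1.39-fold without mouse 1. Insig2, which retains SREBP precursors in the endoplasmic reticulum, was at 11.16, 11.72, 11.72 and 11.53. Srebf1, which encodes SREBP-1, was at 8.84, 8.71, 8.69 and 9.06, with mice 1 and 4 high as for Elovl6. Srebf2 varied least, at 7.42 ± 0.027 (SD, n = 4). Whether these regulators account for the levels of the desaturases and elongases was not tested.

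**Figure D4:**
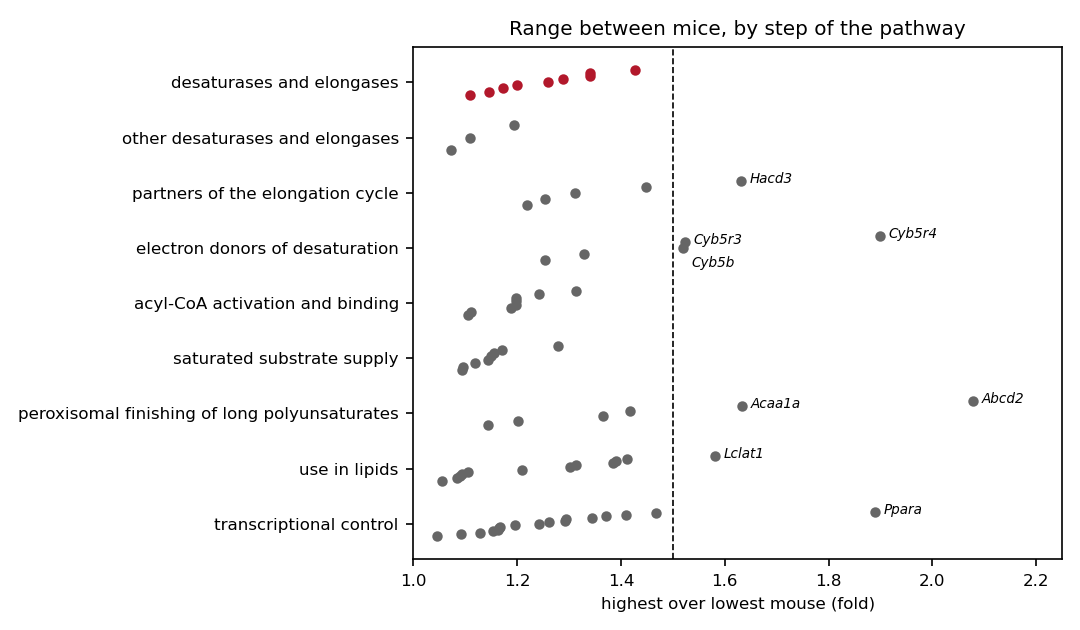
Highest over lowest mouse (x axis, fold) for each gene above background in the desaturase and elongase group (red) and in the lists of the neighbouring pathway steps (grey, y axis); the dashed line marks 1.5-fold and genes beyond it are named. No desaturase or elongase lies beyond 1.5-fold, whereas Cyb5r4 does, and Cyb5b and Cyb5r3 narrowly do at 1.52-fold each.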

How the data were processed

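Liver RNA of 4 aP2-SREBP-1c mice was hybridized to Mouse Gene 1.0 ST arrays. The authors deposited log2 expression values from RMA, made in the Affymetrix Expression Console per the labels. RMA includes background correction, quantile normalization and median polish, and brings values of the arrays closer together. The set of arrays normalized together and the genome build are not given in the sources used here.

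Among the 35556 probe sets, 21789 carried 1 symbol, 1621 several and 12146 none here. All statistics used log2 values. Confidence intervals came from limma 3.58.1 (lmFit, eBayes; R 4.3.3), where the fits moderate each variance towards that of the other genes. The steps were tested on simulated data in which every gene had the same SD and independent errors. Variances that differ between genes and a shift of mouse 1 shared by many genes were not simulated. Genes above background were split into 10 classes of mean expression, here called deciles. Python 3.11.15 with pandas 2.3.3 and matplotlib 3.10.9 was used. Motifs were searched in RefSeq promoters of GRCm38.p6.

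The members and gene lists were chosen with earlier results of these data known. Named besides the members were, per pathway list, the 2 genes with the largest and the gene with the smallest SD, genes beyond 1.5-fold, Srebf1, Fasn, Scd3 and Elovl3, and per marker list the gene with the highest mean. Rab3il1, Thrsp, the adipocyte markers other than Pck1, and genes listed as below background, were named after their values were seen. Listed genes without a probe set of their own symbol were not analysed here. Alternatives comprised median-centred arrays, quantile normalization, probe set means, other limits and leaving out each mouse.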

Additional observations from a re-analysis of the deposited data

Results flagged for a closer look

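Of 45 named genes, 3 had a mouse far from the others, judged by the gap to the nearest mouse relative to the whole range. Chance alone flags about 1 in 20 for normally distributed values, and the share over all genes is not given here. None of the 9 desaturases and elongases was among the 3, the largest ratio being 0.70. Elovl3 in mouse 1 was measured at 12.60, with the next mouse at 12.73. Its difference of -0.14 from the other mice was smaller than the median of -0.23 over its decile. After quantile normalization it was -0.027. Acsbg1 in mouse 4 was at 5.63, with the next mouse at 5.96. The biliary marker Sox9 in mouse 3 was at 7.40, with the next mouse at 7.08.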

How the results depend on the processing

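The levels of the 9 members moved by less than their SD in all 72 alternative values. These covered median-centred arrays, quantile normalization, probe set means, each mouse left out and the interval from the SD of the gene alone. The last gave wider intervals for variable members, such as 11.26 to 12.01 for Fads2. Only quantile normalization could have moved a level by more than its SD. Each member had 1 probe set, and centring and the choice of interval leave the mean almost unchanged. Leaving out a mouse cannot move the mean by its whole SD. All 9 members stayed above background except with the 99th percentile as limit, when Fads3 did not. The count of members beyond 1.5-fold stayed at 0 in 8 of 9 alternatives, and 5 members exceeded 1.2-fold. Of all genes, 1584 exceeded 1.5-fold, 138 exceeded 2-fold and 8415 exceeded 1.2-fold. Without a filter on low values 3749 genes exceeded 1.5-fold, and with 1 mouse left out the count was 344 to 1294, lowest without mouse 1. Of 63 alternative ranges of single members, 9 moved by more than the SD, among them Fads1 (1.14-fold), Elovl2 (1.10-fold) and Elovl6 (1.33-fold) after quantile normalization, and Scd1 (1.17-fold) with median-centred arrays. The median difference of mouse 4 over the members, -0.029, had no stable sign and was 0.0050 with median-centred arrays, 0.013 after quantile normalization and -0.10 to 0.055 with another mouse left out. Those of mice 1, 2 and 3 kept their sign in the 18 alternatives run, but that of mouse 2, 0.14, fell to 0.027 without mouse 1 and to 0.052 after quantile normalization, and that of mouse 3, 0.10, to 0.051 without mouse 1. With the 200 genes nearest in level in place of the decile, chosen after seeing the data, 4 members again had an SD below the median. The cause of these shifts was not tested. Low signal over background limits Fads3 and Scd2, and the top of the scale may limit Scd1. No paired analysis was possible because all mice belong to 1 group.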
